A study of Homo sapiens with 6 samples.

Results

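Podocyte identity was described through 9 genes, chosen by name for their place in podocyte biology: the transcription factors WT1, FOXC1, FOXC2, LMX1B and TCF21, the slit diaphragm genes NPHS1 and CD2AP, and the apical membrane genes PODXL and PTPRO. Of these, 7 had a row among the 20745 genes of the table. LMX1B and NPHS1 had none, whether looked for by symbol or by Ensembl identifier.

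The cells were of the human line AB 8/13, conditionally immortalized podocytes that proliferate at a lower temperature and are then differentiated at body temperature. RNA was sequenced from 3 control cultures kept without serum for 24 h and from 3 cultures given 1 µM levamisole in medium without serum for 24 h. The methods of the study place the control cultures in complete medium instead, and this difference from the sample labels could not be settled. The titles of the levamisole samples also carry the word control, and their treatment label was followed. The cultures of a group came from different passages of this one line.

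The values are base means: the authors divided each count by the size factor of its library and averaged the results over all libraries they fitted together. A base mean therefore pools control and levamisole cultures and has no SD or n. The sources used here do not say which libraries were normalized together, so it is not known whether others entered the average. The other measured columns of the table are the authors' own comparison of levamisole with control and were not used, so no effect of levamisole is given and the groups were not compared. The base means of all genes sum to 6345656, but the depth of each library is unknown.

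Podocytes are the epithelial cells that cover the outer side of the glomerular capillaries, and their interlocking foot processes are joined by the slit diaphragm, a cell junction that takes part in the filter of the kidney. NPHS1 encodes nephrin, the adhesion protein that bridges the slit, and CD2AP is an adaptor that ties nephrin to the actin cytoskeleton. PODXL encodes podocalyxin, a strongly charged sialoprotein of the apical surface, and PTPRO encodes a receptor tyrosine phosphatase of that same surface. WT1, FOXC1, FOXC2, LMX1B and TCF21 are transcription factors that take part in forming podocytes and in keeping them differentiated.

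The 7 genes with a row divided into a high and a low set. FOXC2, CD2AP and FOXC1 lay above the median base mean of all genes (21.8), and PODXL, TCF21, WT1 and PTPRO lay below it. The base means ran from 1013 for FOXC2 to 0.333 for PTPRO, close to the lowest of the table (0.194). A base mean of at least 5 was reached by 6 of the 9 genes, or 66.7%, against 59.1% of the 20046 protein-coding genes of the annotation (GENCODE 44). In bulk RNA, fewer cells that use a gene and less RNA of it per cell cannot be told apart.

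**Figure D1:**
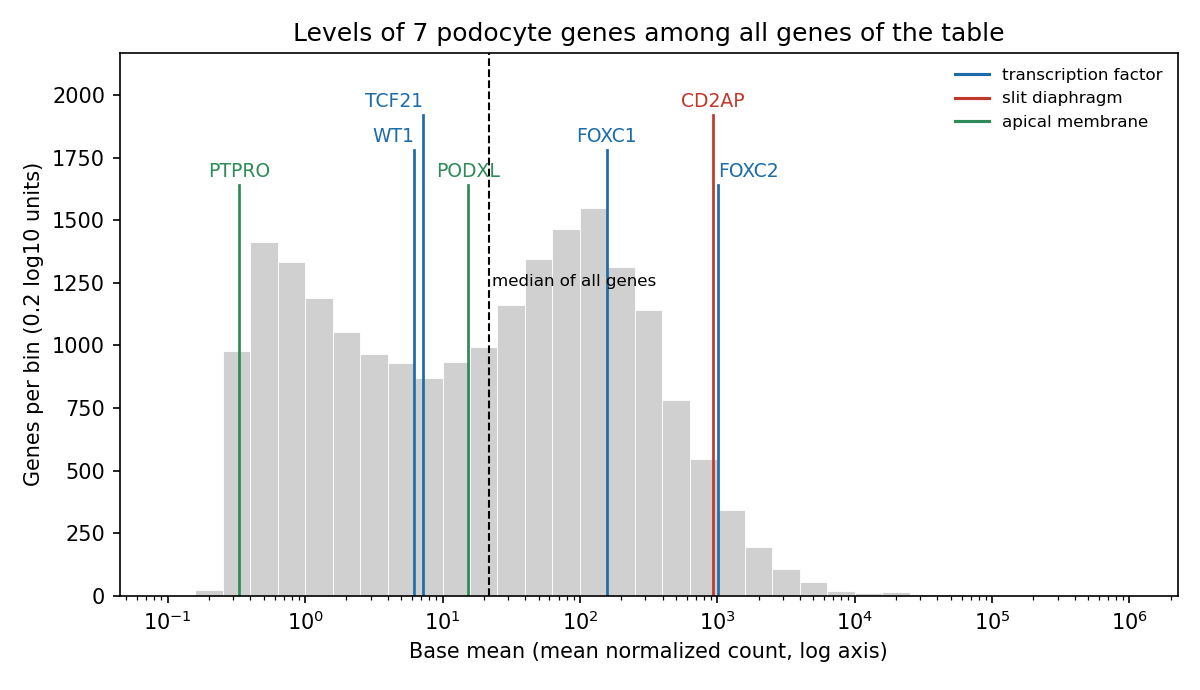
Grey bars count the genes of the table in bins of base mean (x, mean normalized count, log axis), the coloured lines mark 7 podocyte genes by role, and the dashed line is the median of all genes. FOXC1, CD2AP and FOXC2 lie to the right of the median of 21.8, and PTPRO, WT1, TCF21 and PODXL to the left of it.

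FOXC2 had the highest level of the 4 transcription factors with a row. It is a forkhead factor of mesodermal and kidney development with a single exon (ENSG00000176692, chromosome 16 of GRCh38, 86566829 to 86569728, plus strand). Its base mean was 1013, at place 750 of all genes from the top, and 96.4% of the genes had a lower one. FOXC1, its close relative and also a gene of 1 exon, lies on chromosome 6 (ENSG00000054598, 1609915 to 1613897, plus strand). FOXC1 had a base mean of 157, and 78.0% of the genes of the table had a lower base mean.

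Sequencing followed CEL-seq, which reads transcripts from their poly(A) tail, so a count depends little on length. Levels of different genes were nevertheless set side by side per kilobase of the longest annotated transcript. Such scaled values vary with the annotated length, so an order that changes between the scales does not by itself show a difference in level. Per kilobase, the level of FOXC2 was 349 and that of FOXC1 was 39.4, a ratio of 8.87. On base means the ratio was 6.46. FOXC2 thus had the higher level of the pair on both scales, and no spread between cultures is known against which to set the difference.

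WT1 encodes the zinc finger factor that is often used to mark podocyte nuclei (ENSG00000184937, chromosome 11, 32387775 to 32435564, minus strand, 10 exons in the canonical transcript). Its base mean was 6.21, and 37.8% of the genes had a lower base mean, or 19.7% when only protein-coding genes were counted. TCF21, a basic helix-loop-helix factor of podocyte maturation, lies on chromosome 6 (ENSG00000118526, 133889113 to 133895553, plus strand, 2 exons). TCF21 had a base mean of 7.20, with 39.3% of the genes and 20.8% of the protein-coding genes below it, next to WT1 in the order of levels. All of its last 500 exonic bases are covered by exons of TARID on the other strand, which matters for its count only where reads were counted without regard to strand.

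LMX1B is a LIM homeodomain factor of limb and podocyte development (ENSG00000136944, chromosome 9, 126613928 to 126701032, plus strand, 8 exons). It had no row in the table. The lowest base mean of the table was 0.194 and no gene was listed at 0, so a gene without a row has no value here and no upper limit could be set for it. Missing rows were common, since 5591 of the 20046 protein-coding genes of the annotation, or 27.9%, had none. Some of these may have identifiers newer than the authors' annotation.

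CD2AP had the highest level of the 3 slit diaphragm and apical membrane genes among the 9 that had a row (ENSG00000198087, chromosome 6, 47477789 to 47627263, plus strand, 18 exons). Its base mean was 929, at place 831 from the top. Nephrin's gene NPHS1 (ENSG00000161270, chromosome 19, 35825372 to 35869287, minus strand, 29 exons) had no row. The adaptor's gene thus had a base mean above that of 96.0% of the genes, while the gene of the protein that it anchors had no listed level.

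PODXL (ENSG00000128567, chromosome 7, 131500262 to 131558217, minus strand, 9 exons) had a base mean of 15.3, and 46.4% of the genes but 27.6% of the protein-coding genes were lower. PTPRO (ENSG00000151490, chromosome 12, 15322257 to 15602175, plus strand, 27 exons) had a base mean of 0.333. Only 435 genes of the table had a lower base mean than PTPRO. The level of CD2AP was 60.6 times that of PODXL on base means and 69.1 times per kilobase. No ratio is given for PTPRO, whose base mean was too near the lowest of the table.

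Scaling to length left the order of the 7 genes as it was: FOXC2, CD2AP, FOXC1, PODXL, TCF21, WT1 and PTPRO. Per kilobase the levels were 349, 172, 39.4, 2.49, 2.39, 1.95 and 0.0426 in that order, beside a median of 7.28 over all genes with a transcript length. PODXL, TCF21 and WT1 were close together on this scale, and the deposited values hold no spread that would tell whether these neighbours, or FOXC2 and CD2AP, differ. The place of PODXL among all genes moved most, by 11.8 percentage points, from 46.4% to 34.5%.

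**Figure D2:**
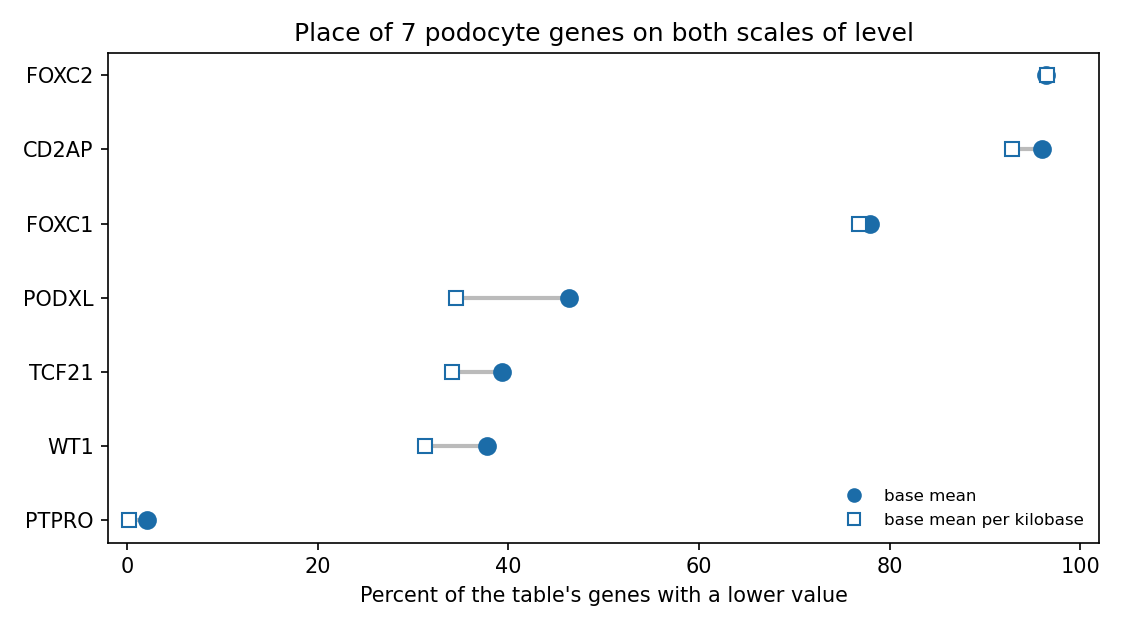
For each of 7 podocyte genes (y) the filled circle gives the percent of the table's genes with a lower base mean (x) and the open square the percent with a lower base mean per kilobase of the longest transcript. The order of the genes is the same on both scales, and PODXL shows the largest shift, from 46.4% to 34.5%.

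The promoters of the slit diaphragm pair are shown because CD2AP had one of the highest levels and NPHS1 had no row, a choice made after the levels were seen. The windows are from RefSeq on GRCh38.p14, run from 250 bases before to 50 bases after a RefSeq start site, and carry the GC box (GGGCGG on either strand) in capitals. The CD2AP window (chr6:47477539-47477838, plus strand) holds 3 GC boxes and 70.7% G and C. The NPHS1 window (chr19:35852455-35852754, minus strand) holds 0 GC boxes and 64.7% G and C, and its ratio of observed to expected CpG was 0.132 against 0.939 for CD2AP. Its start site is that of the canonical GENCODE transcript, 16783 bases inside the NPHS1 span given above, which longer transcripts extend. LMX1B, the other gene without a row, had 2 GC boxes and a CpG ratio of 1.01. FOXC1 had 2 GC boxes and a ratio of 1.02, and TCF21 had 1 and 0.402. The first window of WT1 had 1 and 0.575, and the first window of PTPRO had 0 and 0.630. FOXC2 and PODXL had no window in the collection. The relation of these features to the levels was not tested.
CD2AP: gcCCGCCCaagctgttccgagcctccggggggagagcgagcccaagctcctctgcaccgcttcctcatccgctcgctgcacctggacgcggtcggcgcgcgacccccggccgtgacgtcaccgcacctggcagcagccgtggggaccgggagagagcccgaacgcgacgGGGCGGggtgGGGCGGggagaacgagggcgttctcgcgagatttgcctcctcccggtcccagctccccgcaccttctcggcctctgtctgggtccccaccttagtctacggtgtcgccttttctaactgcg
NPHS1: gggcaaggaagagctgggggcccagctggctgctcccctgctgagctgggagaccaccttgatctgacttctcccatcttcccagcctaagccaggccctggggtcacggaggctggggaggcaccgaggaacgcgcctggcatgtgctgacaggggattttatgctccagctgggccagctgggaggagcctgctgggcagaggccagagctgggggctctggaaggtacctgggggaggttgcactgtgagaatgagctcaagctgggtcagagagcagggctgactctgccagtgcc

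Of the 9 genes, 7 had at least 1 window in that collection, 11 windows in all, of which 7 exceeded the median of 58.7% G and C over all 35116 windows. A GC box was found in 5 of the 11 windows and in 45.0% of all windows. CCAAT was found in 3 windows (34.6% of all), and TATAAA in 1 (11.5%). Of short cores of the factors described here, the forkhead core GTAAACA was in 1 window (3.42% of all), the homeodomain core TAATTA in 1 (4.84%) and GTGGGAG, a core bound by WT1, in 0 (10.7%). All motifs were searched on both strands, and none of them contains another. These are matches of letters only, chosen after the levels were seen, and say nothing of binding.

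Of 9 podocyte transcription factors in a wider list, 8 had a row and 7 reached a base mean of 5, with a median of 107. Apart from the factors above, FOXD1, a forkhead factor of the kidney stroma and of podocytes, stood at 759. PAX2, which is switched off when podocytes mature, was at 114, and LDB1, a cofactor of LIM homeodomain factors, at 100.7. KLF15, linked to the differentiated podocyte, was at 1.43. Per kilobase FOXD1 (302) came after FOXC2 (349), and KLF15 (0.563) was the lowest of the 8.

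Of 17 slit diaphragm genes, 14 had a row and 11 reached a base mean of 5, with a median of 193. On base means SH3KBP1, an adaptor related to CD2AP, was highest with 1189, before CD2AP with 929, the polarity protein gene PARD3 with 785 and the large cadherin gene FAT1 with 627. Per kilobase the order was another, with CD2AP at 172, PARD3 at 125, SH3KBP1 at 97.8 and FAT1 at 42.4. FAT1 then lay below NCK1, an adaptor of the actin machinery, at 60.4. This second order rests on the annotated lengths, on which counts of this protocol depend little. The lowest base means were those of PLCE1 (23.2), KIRREL3 (4.44), DDN (2.53) and CRB2 (0.670), which encode a phospholipase, a relative of nephrin, dendrin and a polarity protein. Together with NPHS1, no row was found for KIRREL2 (a relative of nephrin) or TRPC6 (a calcium channel of the slit).

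All 9 apical membrane genes had a row and 7 reached a base mean of 5, with a median of 104. MSN, RDX and EZR, which encode the proteins that link membrane to actin (moesin, radixin and ezrin), were at 1967, 371 and 727. SLC9A3R1, a scaffold that binds ezrin and podocalyxin, was at 735, and its relative SLC9A3R2 at 10.2. PDPN (podoplanin) was at 104, and CLIC5, a chloride channel protein of the foot process, at 2.67. PTPRO was the lowest of this list on both scales, and PODXL had a lower level than its partners EZR and SLC9A3R1 per kilobase (2.49 against 237 and 369). SLC9A3R2 was much nearer to PODXL, at 4.73 per kilobase, and on base means it lay below PODXL (10.2 against 15.3).

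The foot process actin genes had the highest median base mean of the 5 podocyte lists, a difference that was not tested. Per kilobase the medians lay closer together, at 41.2 for this list and from 29.7 to 33.6 for the others. Of the 12 foot process actin genes, 11 had a row. All 11 of these reached a base mean of 5, with a median of 356. MYH9 (nonmuscle myosin) and ACTN4 (alpha-actinin) led with 22809 and 14320, followed by ARHGDIA (846), a regulator of small GTPases, and KANK2 (422), an adhesion scaffold that came after ANLN per kilobase (81.4 against 87.6). SYNPO (synaptopodin) stood at 22.8, AVIL at 9.19, ARHGAP24 at 29.6 and KANK1 at 69.9, while KANK4 had no row. All 10 genes of the basal surface and matrix had a row and a base mean of at least 5, with a median of 249. ITGA3, CD151 and ITGB1, for the integrin that holds podocytes to the basement membrane and the tetraspanin beside it, were at 2506, 2108 and 680. COL4A5, COL4A4 and COL4A3, the collagen chains of the mature glomerular basement membrane, were at 287, 24.9 and 10.1. AGRN was at 385, LAMA5 at 211, DAG1 at 103 and LAMB2 at 42.3.

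Over these 5 lists, 46 of 57 genes, or 80.7%, reached a base mean of 5, beside 59.1% of the protein-coding genes of the annotation. Among genes with a row the share was 46 of 52, or 88.5%, beside 81.9% of the protein-coding genes in the table. The 48 genes of the lists that are not among the 9 reached it in 40 cases. These are counts of listed genes and carry no test. The lists were not limited to genes particular to podocytes, so the shares do not measure podocyte identity. PAX2, which is counted here, is also a parietal epithelial marker below. Listed genes without a row were LMX1B, NPHS1, KIRREL2, TRPC6 and KANK4. Those with a base mean below 5 were PTPRO, CRB2, KLF15, DDN, CLIC5 and KIRREL3.

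**Figure D3:**
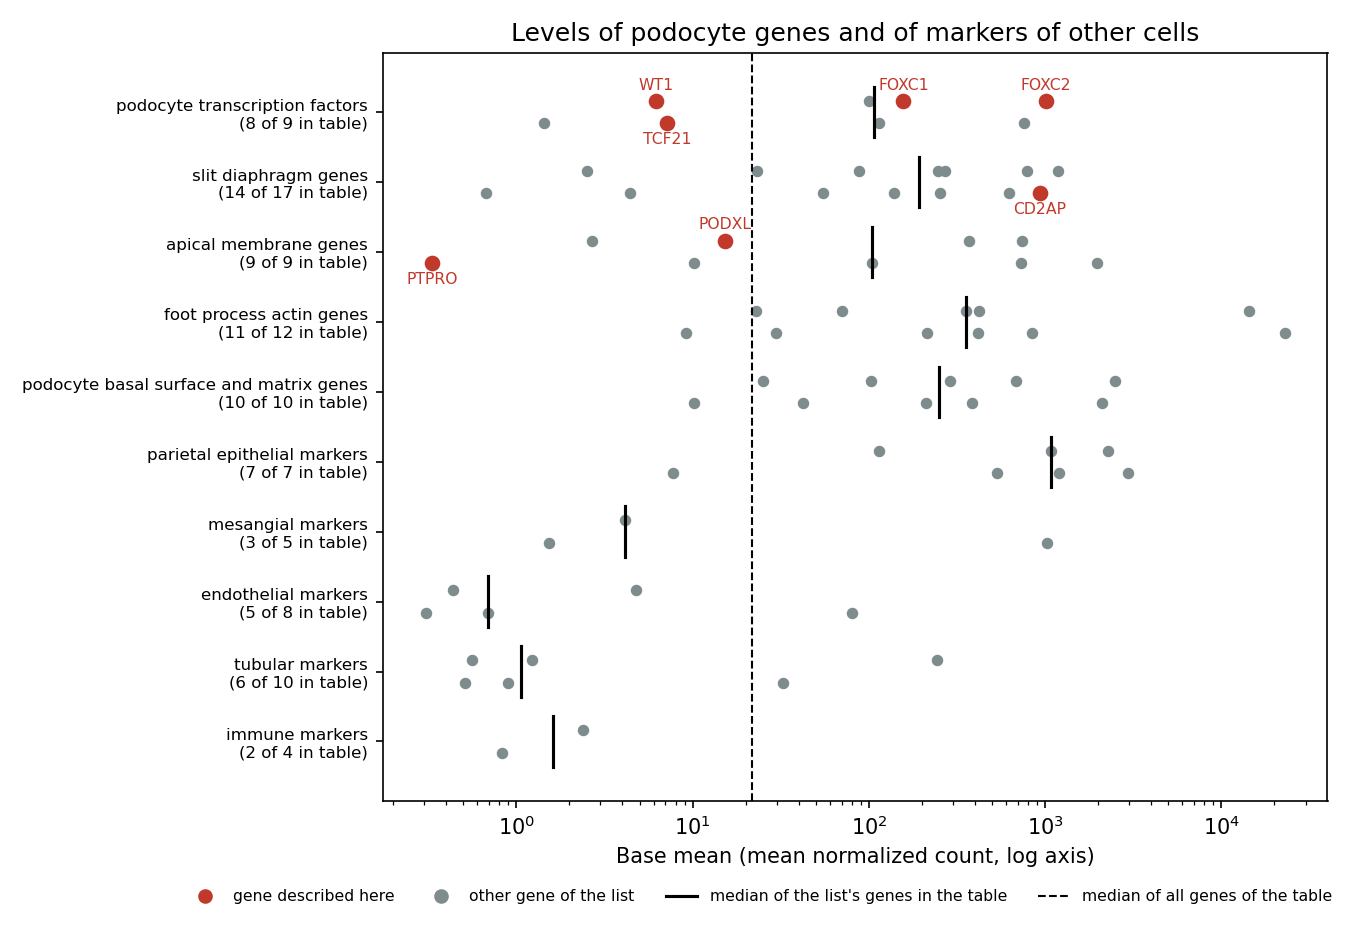
Each point is a gene of the list named on the y axis at its base mean (x, mean normalized count, log axis). Red points are the 7 podocyte genes described first, short black lines are the medians of each list's genes in the table, and the dashed line is the median of all genes (21.8). The 5 podocyte lists and the parietal epithelial markers have their medians to the right of the dashed line, and the mesangial, endothelial, tubular and immune markers to the left.

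The labelled cell type was checked against 10 podocyte markers, namely the 9 genes with SYNPO. A row was found for 8 of them, a base mean of at least 5 for 7, and a base mean above the median of all genes for 4 (FOXC2, CD2AP, FOXC1 and SYNPO). Of the protein-coding genes of the annotation, 72.1% had a row and 59.1% reached a base mean of 5. SYNPO passed the median of all genes narrowly (22.8 against 21.8), and per kilobase it lay below the median (3.23 against 7.28). It also lay below the median base mean of the protein-coding genes in the table (66.2). NPHS1, a marker particular to podocytes within the kidney, and LMX1B had no row. The label could therefore not be checked on those 2 genes.

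Markers of other kidney cells were measured in the same libraries. All 7 parietal epithelial markers (genes of the cells that line Bowman's capsule) had a row and a base mean of at least 5, with a median of 1075 and a sum of 8165. On base means CLDN1 was highest with 2965, then CD44 with 2272, PAX8 with 1198, KRT19 with 1075, KRT8 with 534, PAX2 with 114 and PROM1 with 7.76. Per kilobase CLDN1 was again highest (860), and KRT19 (773) came before CD44 (418) and PAX8 (288). Several of these markers, such as KRT8, KRT19 and CD44, are used by many cultured epithelial cells, and PAX2 stands in the transcription factor list too. Their part in the levels of the podocyte genes was not tested.

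The other marker lists were low. Of 8 endothelial markers, 5 had a row and 1 reached a base mean of 5 (EHD3, 80.1). ERG was at 4.75, TEK at 0.690, VWF at 0.434 and CDH5 at 0.306, and PECAM1, KDR and EMCN had no row. Of 5 mesangial markers, 3 had a row and 1 reached a base mean of 5, ACTA2 (1021), which encodes smooth muscle actin and is common in cultured cells. PDGFRB was at 4.14 and GATA3 at 1.54, and ITGA8 and DES had no row. Of 10 tubular markers, 6 had a row and 2 reached a base mean of 5, AQP1 (243) and MIOX (32.4), while CUBN was at 1.219, SLC34A1 at 0.9004, SLC5A2 at 0.563 and SLC12A3 at 0.514, and LRP2, UMOD, SLC12A1 and AQP2 had no row. Of 4 immune markers, CD14 was at 2.40 and PTPRC at 0.832, and CD3E and LYZ had no row.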

How the data were processed

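Bulk RNA sequencing of 3 control and 3 levamisole-treated cultures (1 µM, 24 h) was analysed from 1 deposited table. According to the methods and labels, reads from an adapted CEL-seq protocol were trimmed with Trim Galore 0.4.5, mapped to GRCh38 with STAR 2.7.5a, counted with HTSeq 0.11.0 and compared with DESeq2 1.22.0 by the authors. The only values used, the base means, are a signal that the authors deposited already normalized by size factors and averaged over libraries. The 5 other measured columns hold the authors' own comparison of the groups (log2 fold change, its standard error, Wald statistic, p-value and adjusted p-value) and were not used. The authors selected differentially expressed genes at a minimum of 5 counts in each sample, and the deposited table also holds 7409 genes with a base mean below 5. No values per culture were analysed, so the planned test between the groups was not made.

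Rows were found by gene symbol, then by Ensembl identifier. Of 20745 identifiers, 20599 matched GENCODE 44 (GRCh38), a later annotation than the authors', which gave positions, gene types and longest transcripts. Percentiles, levels per kilobase and counts at a minimum base mean of 5 were computed with Python 3.11.15, NumPy 2.4.6 and pandas 2.3.3, and figures were drawn with matplotlib 3.10.9. The functions were tested on simulated data. The genes and the 10 lists were chosen with earlier results of these data known, and some genes of the lists are not reported here. Named were the 9 genes, every gene of lists of up to 10 genes, and otherwise the 4 highest, the 4 lowest and those without a row.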

Additional observations from a re-analysis of the deposited data

How the results depend on the processing

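The median percentile of the 7 genes in the table was 46.4 over all genes. It was 34.5 per kilobase of the longest transcript and 27.6 among protein-coding genes only. With the percentile taken over genes at or over a base mean of 1 or 5 it was 53.8 and 41.1, over the 6 genes that passed, since PTPRO was left out by construction. Of single genes, the percentile of WT1 moved from 37.8 to 24.1 and 3.21 at these minimums and to 19.7 among protein-coding genes, that of TCF21 from 39.3 to 25.9, 5.54 and 20.8, and that of PODXL from 46.4 to 34.6, 16.6 and 27.6. PTPRO moved from 2.10 to 0.775 among protein-coding genes and to 0.214 per kilobase. FOXC2, CD2AP and FOXC1 stayed at or above 65.7 under all of these settings. The number of the 9 genes at or over the minimum was 6 at 5, 6 at 1, 4 at 10 and 3 at 50. Of the 57 genes of the podocyte lists, 46, 50, 43 and 35 reached these minimums. For the 34 markers of other cells the numbers were 11, 16, 10 and 9. Of all genes of the table, 64.3%, 82.0%, 57.8% and 39.9% reached them. The 11 markers of other cells at 5 included all 7 parietal epithelial markers, and PAX2 was counted on both sides. Of 30 counts for single lists at other minimums, 26 stayed within 1.5 times the count at 5. Each of the 9 genes had at most 1 row, so the choice among rows of 1 symbol gave no alternative. No paired analysis was possible because the values used are pooled over cultures, and for that reason refits, other normalizations and left-out replicates were not run. The spread between cultures is unknown because the values are pooled. The reads behind each base mean are also unknown, since the 3744 base means below 1 were all different (to 9 decimals) and gave no step of 1 read.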

Other observations

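Several of the 9 genes overlap another gene on the opposite strand, and some of those neighbours had a row. WT1-AS, the antisense RNA at WT1, had a base mean of 4.44 beside 6.21 for WT1. FOXC2-AS1 had 5.40 beside 1013 for FOXC2, and TARID, whose exons cover the last 500 exonic bases of TCF21 on the other strand, had 1.88 beside 7.20. The span of NPHS1, which had no row, overlaps APLP1, a gene of the amyloid precursor protein family on the other strand, which had a base mean of 1102. KIRREL2 also overlaps the span of NPHS1 and had no row. Both lie outside the canonical transcript of NPHS1, in the part of the span that only longer transcripts cover. None of the 9 genes had any of its last 500 exonic bases covered by an exon of another gene on the same strand. These neighbours were looked up after the levels were seen.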
